A study of Mus musculus with 2 samples.

Results

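The miR-106b-25 and miR-106a-363 clusters are the paralogues of the miR-17/92 cluster, and their 9 microRNA genes were followed here in the mouse adrenal gland. The genes were chosen by name, not by their counts, and were matched by Ensembl identifier. They are Mir106b, Mir93 and Mir25 of the first cluster and Mir106a, Mir18b, Mir20b, Mir19b-2, Mir92-2 and Mir363 of the second. These are 9 of 2202 annotated microRNA genes, of which 749 had at least 1 count. Of the 9 genes, 8 were counted at all, and 6 reached 10 counts in each library. The libraries came from adrenal gland tissue of 2 male B6CASTF1/J mice aged 36 days, 1 library from each, and were made from RNA under 30 nt per the labels. These animals are F1 hybrids between C57BL/6J and CAST/EiJ, and how CAST/EiJ alleles affect the mapping of these hairpins was not tested. The labels give 1 group and no treatment or second condition. They number the animals separately and list a single donor record for both, so the spread between the libraries may be partly technical.

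A microRNA is cut from a hairpin in a longer transcript, and it represses messenger RNAs that pair with its seed, bases 2 to 8 counted from its 5′ end. The miR-17 family and its cluster mates are known for promoting cell division and survival, in part by lowering the cell cycle inhibitor Cdkn1a and the pro-apoptotic protein Bim. Mir106b, Mir93 and Mir25 lie inside Mcm7, which encodes a subunit of the replicative helicase, and both they and Mir17hg, the host transcript of miR-17/92, are known targets of E2F transcription factors. The miR-106a-363 cluster lies on the X chromosome, was first known as a retroviral integration site in T cell tumours, and is usually weakly expressed in normal adult tissue.

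In mm10 the first cluster spans 498 bases on the minus strand of chromosome 5. In the direction of transcription it holds Mir106b (ENSMUSG00000065514.1, chr5:138165737-138165818), Mir93 (ENSMUSG00000065527.1, chr5:138165523-138165610) and Mir25 (ENSMUSG00000065394.1, chr5:138165321-138165404). All 3 hairpins lie in the intron between exons 13 and 14 of the 15-exon Mcm7 transcript, an intron of 748 bases. Mir93 and Mir25 also overlap an exon of a shorter annotated Mcm7 transcript, whereas Mir106b overlaps no annotated exon. The second cluster spans 875 bases on the minus strand of the X chromosome. It runs from Mir106a (ENSMUSG00000065456.1, chrX:52742503-52742567) through Mir18b (ENSMUSG00000077111.2, chrX:52742331-52742413), Mir20b (ENSMUSG00000076041.1, chrX:52742113-52742192), Mir19b-2 (ENSMUSG00000065473.1, chrX:52741983-52742066) and Mir92-2 (ENSMUSG00000065613.1, chrX:52741838-52741928) to Mir363 (ENSMUSG00000070106.1, chrX:52741693-52741767). Of these, Mir106a overlaps the annotated long noncoding RNA Kis2 by 5 of its 65 bases, and the other hairpins overlap no annotated host on their strand.

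The mature sequences show which members share a seed and which cannot be told apart by a read. They are given for the arm by which each family is usually known, from RefSeq on GRCm38.p6, with the seed in capitals. Counts in the deposited files refer to whole hairpins and do not separate the arms. All 9 members had a RefSeq mature sequence, and sequences of Mir17hg genes are shown for comparison.
miR-106b-5p (Mir106b): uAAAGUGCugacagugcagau
miR-93-5p (Mir93): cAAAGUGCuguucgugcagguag
miR-106a-5p (Mir106a): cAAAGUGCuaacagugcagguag
miR-20b-5p (Mir20b): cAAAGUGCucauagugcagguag
miR-17-5p (Mir17): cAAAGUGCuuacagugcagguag
miR-20a-5p (Mir20a): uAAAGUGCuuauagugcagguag
miR-18b-5p (Mir18b): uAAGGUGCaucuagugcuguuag
miR-18a-5p (Mir18): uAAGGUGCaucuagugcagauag
miR-19b-3p (Mir19b-2 and Mir19b-1): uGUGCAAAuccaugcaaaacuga
miR-25-3p (Mir25): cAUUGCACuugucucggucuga
miR-92a-3p (Mir92-2 and Mir92-1): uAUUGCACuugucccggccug
miR-363-3p (Mir363): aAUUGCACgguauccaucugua

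Mir106b, Mir93, Mir106a and Mir20b thus carry the miR-17 seed, Mir18b the miR-18 seed, Mir19b-2 the miR-19 seed, and Mir25, Mir92-2 and Mir363 the miR-25/92 seed. Outside the seed, miR-106a-5p differs from miR-17-5p by 1 base, A10U, counted from the 5′ end of miR-106a-5p. It differs from miR-20b-5p by 2 bases and from miR-93-5p by 4. Over its first 21 bases miR-363-3p differs from miR-92a-3p at 11, although both share the seed, while miR-25-3p differs from miR-92a-3p at 3. Of the 9 members, 7 have a mature sequence of that arm found in 1 RefSeq hairpin among 1005 searched. The exceptions are Mir19b-2 and Mir92-2, whose 3p sequences are identical to those of Mir19b-1 and Mir92-1 in Mir17hg.

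For these duplicated sequences the hairpins share a stretch slightly longer than the mature microRNA. The shared bases are shown in capitals below with 4 flanking bases on each side.
Mir92-2: uaaaGUAUUGCACUUGUCCCGGCCUGagga
Mir92-1: uaugGUAUUGCACUUGUCCCGGCCUGuuga
Mir19b-2: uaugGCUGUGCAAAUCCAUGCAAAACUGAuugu
Mir19b-1: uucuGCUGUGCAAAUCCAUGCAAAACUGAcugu
The shared stretch is 22 bases for miR-92a and 25 bases for miR-19b. A read that lies wholly inside it has both loci as its source, and reads that map to several places are a separate row of the deposited files and belong to no gene. Those reads were 29.8% and 21.5% of all reads in replicates 1 and 2. The counts of Mir92-2, Mir92-1, Mir19b-2 and Mir19b-1 are therefore uncertain and may be too low, and this limit touches each result on them given here.

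Replicate 1 held 4494857 sense-strand gene counts and replicate 2 held 2078824. Levels are given in CPM, counts scaled to 1000000 over these totals, with the SD over the 2 libraries. CPM values are not divided by length, and mature microRNAs are of about the same length whatever the hairpin. At 0 counts a gene may have up to 3 counts, or 0.667 CPM in replicate 1 and 1.44 CPM in replicate 2. Counting intervals are exact 95% intervals and cover counting error only, since PCR copies cannot be recognised in these counts. Messenger RNA markers of the adrenal cortex or medulla are outside a microRNA library. The neuroendocrine microRNAs Mir375, Mir7-1, Mir7-2 and Mir7b were all counted and together took 4.88% and 5.42% of the gene counts. Most of that share was Mir375, at 44147 CPM in replicate 1 and 51780 CPM in replicate 2. Mir7b (4326 and 2129 CPM), Mir7-1 (233 and 165 CPM) and Mir7-2 (96.3 and 83.2 CPM) were all lower in replicate 2.

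The Mcm7-hosted cluster supplied nearly all counts of the 9 genes. Mir93, which carries the miR-17 seed, had 3689 CPM in replicate 1 and 3259 CPM in replicate 2, a mean of 3474 ± 305 CPM (SD, n = 2). It ranked 40th and 44th among all annotated genes in the 2 libraries. Mir93 was thus the highest of the 9 genes in both libraries. Mir106b, of the same seed, had 1194 and 794 CPM (mean 994 ± 282), and was the second highest gene in both libraries. Mir25, which carries the miR-25/92 seed, had 390 and 380 CPM (mean 385 ± 7.37). The order Mir93, Mir106b, Mir25 was the same in both libraries, and each step was larger than the larger SD of its 2 genes. Along the transcript the middle hairpin was the highest. Mir93 took 70.0% of the cluster's counts in replicate 1 (interval 69.4 to 70.5) and 73.5% in replicate 2 (72.6 to 74.4). Mir106b took 22.6% (22.1 to 23.2) and 17.9% (17.1 to 18.7), and Mir25 took 7.40% (7.07 to 7.74) and 8.57% (8.01 to 9.16). The 3 genes together took 0.527% and 0.443% of all gene counts (mean 0.485% ± 0.0594).

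The genes of the X-linked cluster stood at far lower levels, and 2 of its 6 genes were at or near 0. Mir20b, of the miR-17 seed, had 42.0 and 21.2 CPM (189 and 44 counts), a mean of 31.6 ± 14.8 CPM. Mir92-2, whose 3p arm is the duplicated miR-92a, had 50.7 and 9.62 CPM (228 and 20 counts), a mean of 30.2 ± 29.1 CPM. Replicate 1 was the higher library for both genes, and the spread of Mir92-2 was nearly as large as its mean. Mir106a had 26.5 and 13.5 CPM (119 and 28 counts; mean 20.0 ± 9.20 CPM), and Mir363 had 21.4 and 4.33 CPM (96 and 9 counts; mean 12.8 ± 12.04 CPM). The neighbours in the order Mir20b, Mir92-2, Mir106a, Mir363 did not differ beyond the larger SD. Mir92-2 was the highest of them in replicate 1 and the third of them in replicate 2. Mir18b, of the miR-18 seed, had 2 counts and 1 count, 0.445 and 0.481 CPM, with intervals of 0.0539 to 1.61 and 0.0122 to 2.68 CPM. Mir19b-2 had 0 counts in both libraries. All 6 genes together took 0.0141% of the gene counts in replicate 1 (interval 0.0130 to 0.0152) and 0.00491% in replicate 2 (0.00400 to 0.00596).

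**Figure D1:**
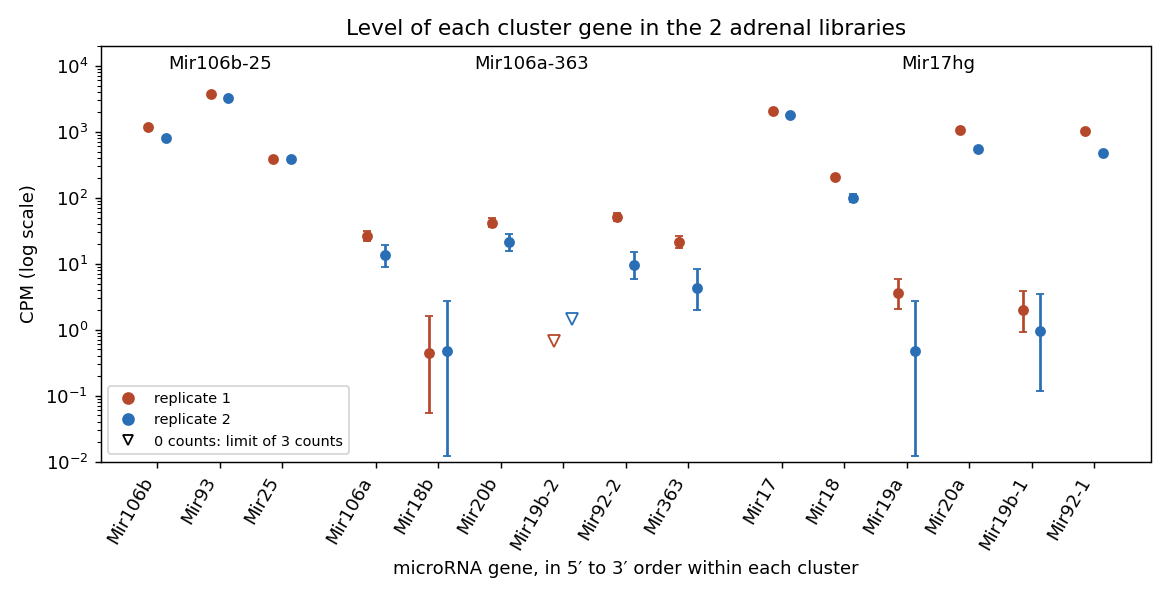
Level of the 9 cluster genes and of the 6 Mir17hg genes in each library, in CPM on a log scale, with exact 95% counting intervals; open triangles mark the limit of 3 counts for genes with 0 counts. The Mir106b-25 genes lie between 380 and 3689 CPM, above every gene of the Mir106a-363 cluster, whose highest value is 50.7 CPM.

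Each gene has a counterpart of the same seed in Mir17hg, for Mir363 by seed alone, since Mir17hg has no hairpin after Mir92-1. Of the 6 X-linked genes, 5 were below their counterpart beyond counting error in both libraries, and Mir19b-2 was too low to compare. Mir17 had 2099 and 1813 CPM, Mir20a 1068 and 551 CPM, Mir92-1 1011 and 471 CPM, and Mir18 204 and 98.1 CPM. Mir19a and Mir19b-1, which carry the miR-19 seed, were also low, with 3.56 and 0.481 CPM and with 2.00 and 0.962 CPM, and Mir19b-2 at 0 counts was likewise the lowest gene of its own cluster. Mir17 stood 79.3-fold and 135-fold above Mir106a in replicates 1 and 2, although the mature sequences differ by 1 base. Mir20a stood 25.4-fold and 26.0-fold above Mir20b, and the 2 ratios differed by less than their counting intervals. Mir92-1 stood 19.9-fold and 49.0-fold above Mir92-2 and 47.4-fold and 109-fold above Mir363. For Mir18b the counts allow a ratio to Mir18 of 0.000264 to 0.00792 in replicate 1 and 0.000124 to 0.0276 in replicate 2. For Mir19b-2, at 0 counts against 9 and 2 of Mir19b-1, they allow a ratio of up to 0.507 and 5.32.

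The Mcm7-hosted genes were of the same order as their counterparts. Mir93 stood 3.45-fold above Mir20a in replicate 1 (interval 3.34 to 3.57) and 5.92-fold in replicate 2 (5.56 to 6.30). The ratio of Mir106b to Mir17 was 0.569 (0.550 to 0.588) and 0.438 (0.413 to 0.464). The ratio of Mir25 to Mir92-1 was 0.386 (0.365 to 0.408) and 0.807 (0.734 to 0.887). In both libraries Mir93 was thus above its counterpart, and Mir106b and Mir25 were below theirs. The size of each ratio differed between the libraries beyond counting error.

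**Figure D2:**
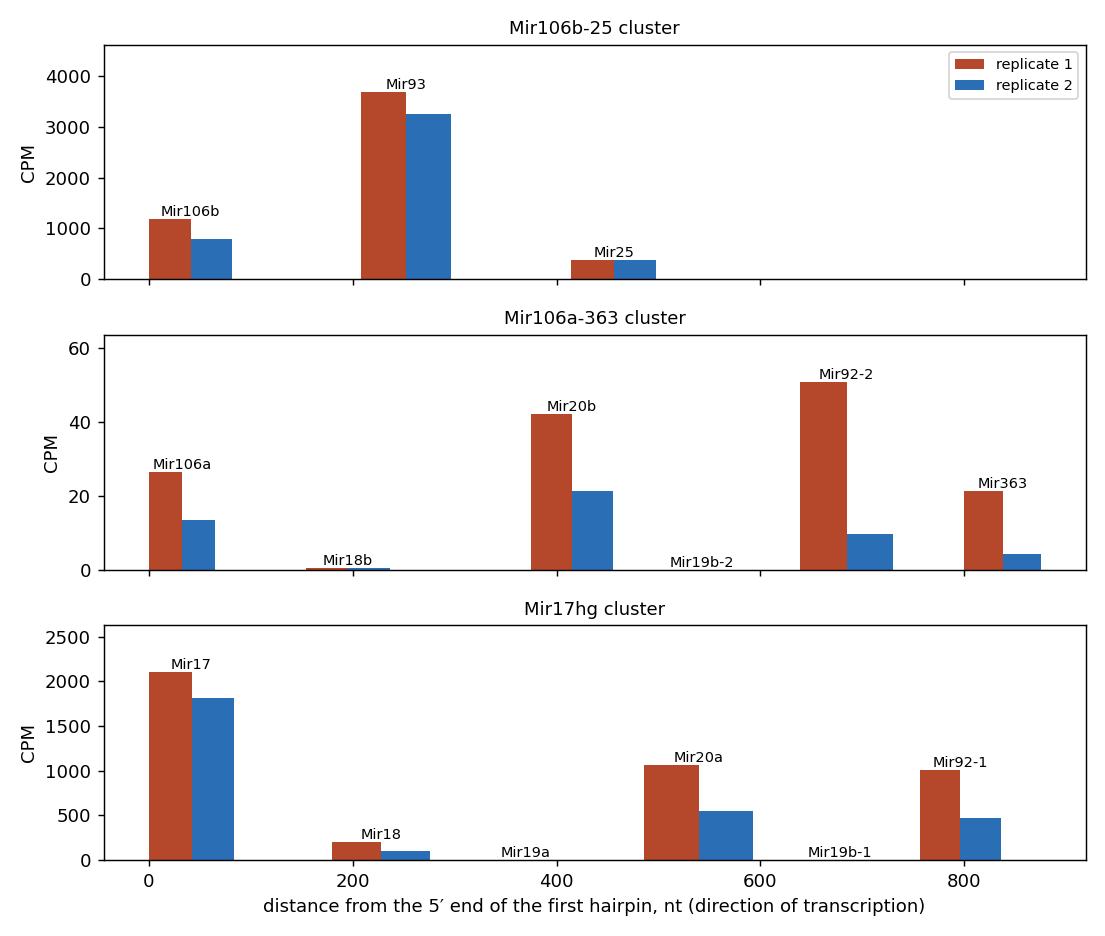
Hairpins of the 3 clusters along their transcripts, in nucleotides from the 5′ end of the first hairpin, with bar height the CPM of each library on a linear axis and bar width the length of the hairpin split between the libraries. The top of the axis differs between the panels: the highest bar of the Mir106a-363 panel is 50.7 CPM, while Mir93 reaches 3689 CPM.

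Grouped by seed, these clusters held most of the counted miR-17 seed and a smaller part of the miR-25/92 seed. The 7 annotated genes with the miR-17 seed took 0.812% and 0.645% of the gene counts in replicates 1 and 2. Of these counts, the Mir106b-25 cluster supplied 60.1% (interval 59.6 to 60.7) and 62.8% (62.0 to 63.6). Mir106a and Mir20b supplied 0.844% (0.753 to 0.943) and 0.537% (0.420 to 0.676), and Mir17 and Mir20a the remaining 39.0% and 36.6%. The one other gene with that seed, Mir6383, had 0 counts in both libraries. For the miR-25/92 seed, Mir25 supplied 25.1% (24.1 to 26.2) of 6981 counts in replicate 1 and 40.2% (38.1 to 42.5) of 1963 counts in replicate 2. Mir92-2 and Mir363 together supplied 4.64% and 1.48%, Mir92-1 65.1% and 49.9%, and the genes at other loci 5.10% and 8.41%. Those other genes are Mir32 at 61.6 and 48.6 CPM, Mir92b at 17.6 and 30.8 CPM, and Mir367 at 0 counts. Reads of the duplicated miR-92a-3p that map to several places are outside these counts, so the share of Mir25 may be too high. The counting intervals do not cover this. The miR-18 seed was counted almost entirely from Mir18, at 99.8% and 99.5%. The miR-19 seed had 25 and 3 counts in all, from Mir19a and Mir19b-1, with reads of the duplicated miR-19b-3p outside them.

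**Figure D3:**
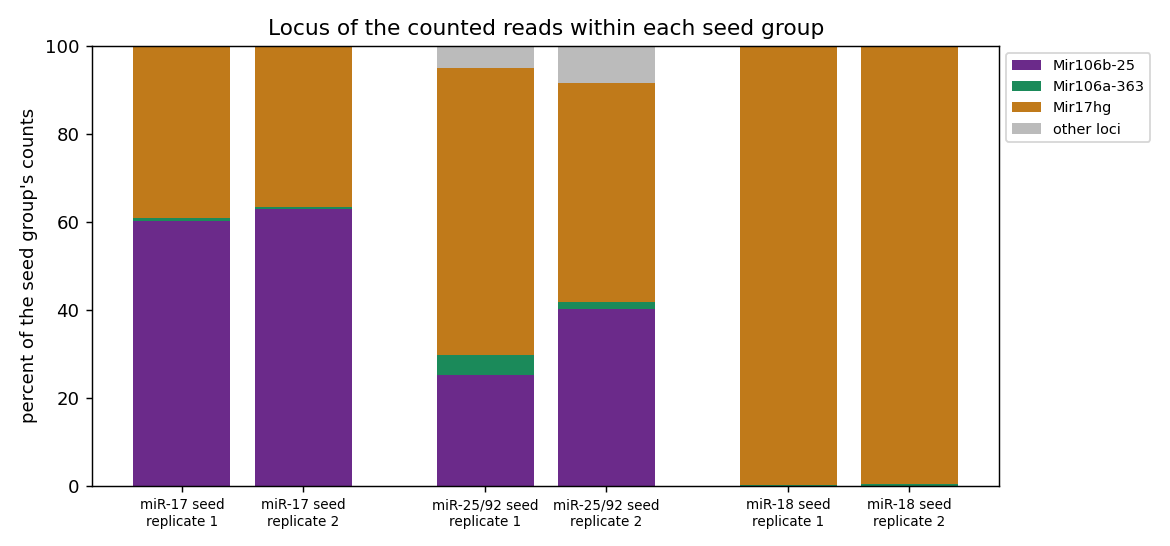
Percent of the counts of each seed group that came from each locus, for replicates 1 and 2, with reads that map to several places left out. Of the miR-17 seed counts, 60.1% and 62.8% came from Mir106b-25, and of the miR-25/92 seed counts, 25.1% and 40.2%.

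Between the libraries, all 6 testable genes of these clusters were lower in replicate 2 once scaled by TMM, and the fitted ratios of the X-linked genes lay further from 0 than those of the Mcm7-hosted ones. The exact binomial test, which takes counting noise as its only error, called 38.7% of the 333 genes tested higher in replicate 1, 39.3% higher in replicate 2 and thus 78.1% in either direction, with Benjamini-Hochberg adjustment at 0.05. It compares these 2 libraries only. The median log2 ratio of replicate 2 over replicate 1 was -0.36 over the Mir106b-25 genes and -1.18 over the 3 tested Mir106a-363 genes, against 0.01 over all genes tested. Over the 4 tested Mir17hg genes it was -1.19, so a median of this size was not particular to the X-linked cluster. For summed counts the log2 ratio was -0.44 for Mir106b-25, -1.71 for Mir106a-363 and -0.77 for Mir17hg. Mir106b had a log2 ratio of -0.77 (counting interval -0.85 to -0.69, adjusted p = 2.97e-87, exact binomial test), and Mir93 one of -0.36 (-0.41 to -0.32, adjusted p = 2.43e-70). Mir25 had the smallest difference, -0.22 (-0.35 to -0.10, adjusted p = 0.000399, exact binomial test). Its call depends on the scaling: with library size alone its log2 ratio was -0.04 (adjusted p = 0.576), and with a correction for hairpin GC content it was -0.55. Library size alone put the median of all genes tested at 0.19 and called 33.6% of them higher in replicate 1, among them the other 5 members.

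On the X chromosome Mir106a and Mir20b differed by about the same amount, with log2 ratios of -1.16 (-1.81 to -0.56, adjusted p = 8.95e-05, exact binomial test) and -1.18 (-1.68 to -0.70, adjusted p = 3.41e-07). Mir92-2 differed most, at -2.58 (-3.32 to -1.92, adjusted p = 7.49e-22, exact binomial test), on the counts of 228 and 20 already given. Mir363 was below the count minimum of 10 in replicate 2. With a minimum of 5 counts, at which 36.5% of 386 genes were called higher in replicate 1, Mir363 had a log2 ratio of -2.54 (adjusted p = 1.04e-09, exact binomial test). Mir18b and Mir19b-2 had too few counts to test. The edgeR exact test, with a dispersion estimated from the same 2 libraries (a biological coefficient of variation of 52.2%), called none of the 6 genes at an adjusted p under 0.05, and 6 of all 333 genes (1.8%). Mir92-2 was the one member at an unadjusted p under 0.05 (p = 0.0336, adjusted p = 0.718, edgeR exact test), among 17 of all 333 genes tested. The adjusted p of the other 5 members was 0.987 in the edgeR exact test. Relative to the general difference between the libraries, no member was therefore past the threshold.

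**Figure D4:**
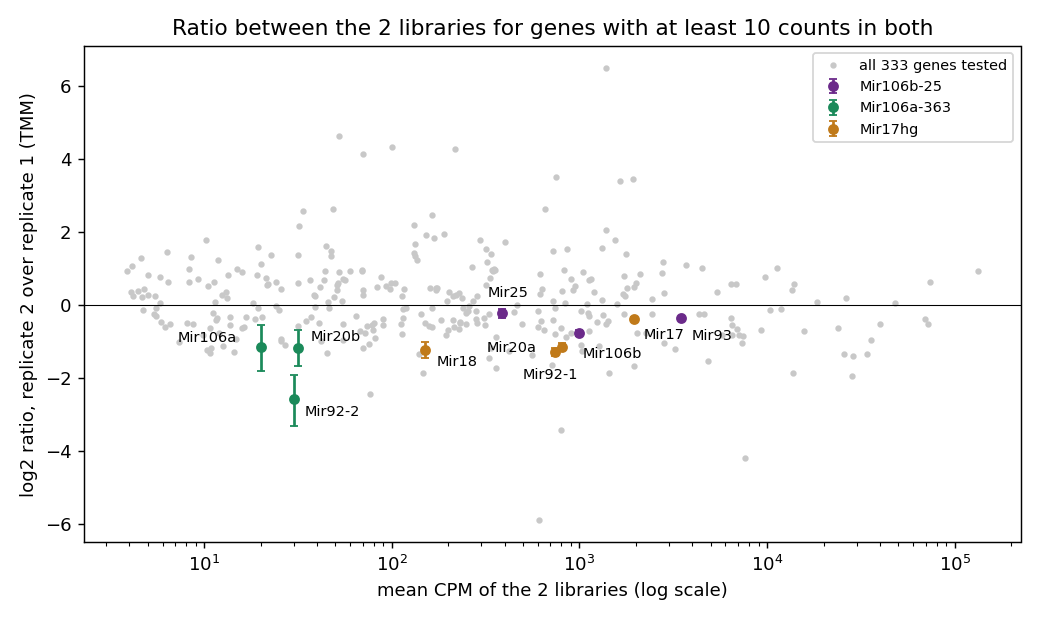
Log2 ratio of replicate 2 over replicate 1 after TMM scaling against mean CPM on a log scale, for the 333 genes tested; bars on the coloured points are counting intervals. The 6 members and the 4 tested Mir17hg genes lie below 0, from -0.22 for Mir25 to -2.58 for Mir92-2, within the spread of the other genes.

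The balance between the clusters was then compared across the libraries with Fisher's exact test on summed counts, which needs no scaling between libraries. Counts of Mir106b-25 were 37.4 times those of Mir106a-363 in replicate 1 (23703 and 634 counts) and 90.3 times in replicate 2 (9215 and 102 counts). The log2 of the first ratio over the second was -1.27 (interval -1.59 to -0.97, adjusted p = 3.14e-19 over 3 cluster pairs, Fisher's exact test). Mir106b-25 stood at 1.20 times Mir17hg in replicate 1 and 1.51 times in replicate 2 (log2 difference -0.33, -0.38 to -0.28, adjusted p = 1.06e-32, Fisher's exact test). Mir106a-363 stood at 0.0322 and 0.0167 times Mir17hg (0.94, 0.64 to 1.26, adjusted p = 8.78e-11, Fisher's exact test). With counting noise as the only error, the 3 clusters therefore did not keep 1 ratio in both libraries. The last of these differences depended on the genes included, since without Mir92-2 and Mir17 it was 0.17 (-0.19 to 0.53, adjusted p = 0.372, Fisher's exact test). Mir92-2 had the most counts of its cluster in replicate 1 and the largest difference between the libraries of the tested members. By mean CPM Mir20b was the highest, and leaving out Mir20b instead was not tested. With Mir93 and Mir92-2, or Mir93 and Mir17, left out in the same way, the other 2 differences kept their direction, at -0.76 and -0.60. These tests, too, take counting noise as the only error. With that error the exact binomial test called 78.1% of all genes tested singly. No share was computed over other groups of genes, and nothing particular to these clusters is read from the cluster differences.

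The ratios of hairpins within a cluster were compared in the same way, and 5 of the 6 pairs tested differed between the libraries. With counting noise as the only error, 78.1% of all genes tested singly were called, no share was computed over other pairs, and nothing particular to these clusters is read from the count. Mir106b was 0.324 times Mir93 in replicate 1 and 0.244 times in replicate 2 (log2 difference 0.41, 0.32 to 0.50, adjusted p = 7.17e-19 over 6 pairs, Fisher's exact test). It was 3.06 and 2.09 times Mir25 (0.55, 0.40 to 0.70, adjusted p = 6.63e-13, Fisher's exact test). Mir93 was 9.45 and 8.57 times Mir25, the smallest of the differences in this cluster (0.14, 0.01 to 0.27, adjusted p = 0.0393, Fisher's exact test). In the X-linked cluster the ratio of Mir106a to Mir20b was 0.630 and 0.636, a log2 difference of -0.02 with an interval of -0.82 to 0.80 (adjusted p = 1, Fisher's exact test). Both genes carry the miR-17 seed and differ by 2 bases in the mature sequence. The pairs that did differ involved Mir92-2: Mir106a was 0.522 and 1.4 times Mir92-2 (-1.42, -2.39 to -0.47, adjusted p = 0.00326, Fisher's exact test), and Mir20b was 0.829 and 2.2 times (-1.41, -2.30 to -0.56, adjusted p = 0.00138). Mir92-2 is the member of these pairs whose 3p arm is shared with another locus, and the part of multiply mapping reads in this result was not tested.

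The libraries also differed in microRNAs of other cell types. The erythroid genes Mir451a, Mir144, Mir486 and Mir3107, all 4 above 0 in both libraries, reached a summed 15843 CPM in replicate 1 against 1094 CPM in replicate 2. Mir451a (14362 and 903 CPM) and Mir144 (1441 and 153 CPM) carried that difference. Mir486 had 38.7 and 35.1 CPM, and Mir3107, which overlaps it on the opposite strand, had 1.33 and 2.41 CPM. Whether reads that map to several places lower the counts of Mir486 and Mir3107 was not tested. The epithelial miR-200 genes, 5 of 5 counted in both libraries, summed to 64.7 and 3576 CPM, and the pancreas acinar genes Mir217, Mir216a and Mir216b had 0 and 677 counts. Leukocyte genes, 5 of 5 counted, summed to 3219 and 3899 CPM but were mixed in direction. Mir142 (550 and 435 CPM), Mir223 (101 and 77.9 CPM) and Mir155 (355 and 274 CPM) were lower in replicate 2. Mir150 (734 and 1104 CPM) and Mir146 (1479 and 2008 CPM) were higher there. The 11 pluripotent cell genes, among them the miR-290 and miR-302 clusters, summed to 46.9 and 84.7 CPM, with Mir290a and Mir367 at 0 in both. The erythroid sum moved in the same direction as the cluster genes and the epithelial and acinar sums in the other, and their part in the differences between libraries was not tested. In bulk tissue, fewer cells of a type and less RNA per cell cannot be told apart.

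The genes closest in level over the 2 libraries carry other seeds. By Euclidean distance over log2(CPM + 1), the genes closest to Mir93 were Mir98 at 3658 and 3385 CPM (distance 0.0563), Mirlet7f-2 (0.466) and Mir541 (0.574). Those closest to Mir20b, the highest gene of its cluster by mean, were Mir677 at 35.4 and 18.8 CPM (distance 0.294), Mir467c (0.390) and Mir33 (0.395). With 2 libraries this distance says little beyond the level itself.

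The promoter of Mcm7 is shown because its 3 intronic hairpins can be made from the host transcript. It is the 300-base window from 250 bases before to 50 bases after an annotated start (GRCm38.p6, chr5:138171834-138172133, minus strand, RefSeq), with matches to E2F-type motifs in capitals.
Mcm7 promoter: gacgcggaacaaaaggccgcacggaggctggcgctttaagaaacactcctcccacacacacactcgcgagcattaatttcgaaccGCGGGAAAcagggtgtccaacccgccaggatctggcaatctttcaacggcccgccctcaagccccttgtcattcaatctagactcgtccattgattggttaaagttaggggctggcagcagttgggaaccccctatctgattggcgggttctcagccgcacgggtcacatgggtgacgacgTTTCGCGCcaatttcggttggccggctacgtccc
The motifs searched on both strands were TTTCCCGC, TTTCGCGC, TTTGCCGC and TTTGGCGC. This window held 2 of them, 1 on each strand, at bases 86 to 93 and 267 to 274 counted from its first base. Of 32851 RefSeq promoter windows of the same length, 2.26% held at least 1. The window of a second annotated Mcm7 start and that of Kis2, the transcript that overlaps Mir106a, held none of these 4 motifs. A match is a description of the sequence, and no binding was measured.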

How the data were processed

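The authors deposited, for each library, raw read counts per annotated microRNA gene on mm10 with GENCODE M21, per the file headers and the text deposited with them. Which aligner and counter were used was not stated in the labels or headers used here. One column ignores strand and 2 hold 1 strand each. The strand column with the larger gene total was taken as sense, and for all 9 members it equals the strand-blind column, with 0 antisense counts. Rows that name no gene were left out of library sizes: unmapped reads were 26.4% and 51.9% in replicates 1 and 2, multiply mapping reads 29.8% and 21.5%, reads outside genes 7.16% and 6.46% and ambiguous reads 0%. The libraries held 12289288 and 10323816 reads, of which 36.6% and 20.1% were assigned to genes.

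From these counts CPM, TMM factors (edgeR 4.0.16 in R 4.3.3), DESeq2 1.42.0 size factors, exact binomial tests over all genes that reached 10 counts in each library, Fisher's exact tests and Clopper-Pearson and Poisson 95% intervals were computed (Python 3.11.15, SciPy 1.17.1, NumPy 2.4.6, pandas 2.3.3, matplotlib 3.10.9). The exact binomial test and Fisher's exact test were first run on simulated counts with counting noise only. Those runs do not cover the wider spread between the real libraries, and the edgeR exact test was not simulated. The members, the lists, the tests and the alternatives were chosen with earlier results of these data known. Named genes are the 9 members, the Mir17hg genes, other genes sharing a member's seed, the fixed marker lists and the 3 genes closest in level to the highest member of each cluster. Mature sequences were searched in RefSeq hairpins, since no genome was used here. Hairpin GC content came from GENCODE M21 transcripts.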

Additional observations from a re-analysis of the deposited data

How the results depend on the processing

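All 6 members tested were called higher in replicate 1, as were 38.7% of 333 genes. With a count minimum of 5 the calls were 7 of 7 members (36.5% of 386 genes), and with none 7 of 8 (22.3% of 749). A minimum of 50 gave 3 of 3 (45.9% of 259), and library size alone 5 of 6, without Mir25 (33.6% of 333). DESeq2 size factors (39.9% of 333), the strand-blind column (39.1% of 304) and the hairpin GC correction (38.7% of 333) gave 6 of 6. The edgeR exact test called 0 members and 1.8% of 333 genes in either direction. At an unadjusted p under 0.05 it had 1 member and 17 of all genes tested. Over the alternatives the adjusted p reached from 5.88e-19 to 0.987 for Mir25 and from 3.19e-25 to 0.718 for Mir92-2, and no member changed direction. The share of Mir106b-25 rose from 0.485% to 0.559% without the highest gene and to 0.595% in the strand-blind column, whose totals are smaller. The Mir106a-363 to Mir17hg difference fell from 0.94 to 0.17 without Mir92-2 and Mir17. With 1 library alone, the Mir106b-25 share was 0.443% to 0.527% and the Mir106a-363 share 0.00491% to 0.0141%. The means of Mir92-2 (50.7 and 9.62 CPM) and Mir363 (21.4 and 4.33 CPM) moved by over 1.5 times with 1 library. Of 136 alternative values, 121 were counted as kept, that is with the same direction and side of the threshold, or moved by less than the SD. Counts of 5 and 7 member calls against 6 were among them. Some of the 121 could not come out otherwise. A mean of 2 libraries always moves by less than the SD when 1 is left out. Ratios between cluster genes are the same in the strand-blind column, which equals the sense column for these genes. The total of 121 is therefore no measure of stability. No paired analysis was possible because the labels give 1 group. Mir363 in replicate 2 (9 counts) and Mir18b and Mir19b-2 in both libraries had too few counts for the test at a minimum of 10, and whether more depth would change this was not tested.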
